A study of Homo sapiens with 3 samples.

Results

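Long noncoding and antisense transcripts were examined as a set of 7 genes, TUNAR, LINC01828, LINC02525, RFPL1S, MYCNOS, TBX2-AS1 and HMGN3-AS1, of 19735 genes measured. These genes were listed because of their high ratios over the reference pool, so their ratios over the pool are given as a description only. No numerical limit was part of that choice. They are read by 9 of the 41037 probe sets that name 1 gene (a probe set is a group of short array probes for the same transcript). For 5 genes there is 1 probe set and for MYCNOS and HMGN3-AS1 there are 2. Expression was measured in untreated cells of the neuroblastoma lines NGP and IMR-32, each grown in its own culture medium, and in a pool of untreated cells of 16 cancer cell lines, whose names are not given in the sources used here. Each of the 3 samples was hybridized once to an Affymetrix U133 Plus 2.0 array, so there are no replicates and no p-value is given. Each line is a single established culture, and its values stand for that culture, not for neuroblastoma tumors in general. The RNA was poly(A) selected and copied from an oligo(dT) primer, so transcripts without a poly(A) tail are outside the measurement.

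A long noncoding RNA is a transcript that is spliced and often polyadenylated like an mRNA but is not known to carry a long reading frame, and an antisense RNA is transcribed from the DNA strand opposite another gene. Such RNAs can act in the nucleus on nearby genes, or in the cytoplasm through bound proteins. In the developing nervous system and in neuroblastoma, a tumor of the sympathetic lineage, many of them are expressed in few cell types. Of the 7 genes, MYCNOS, TBX2-AS1, RFPL1S and HMGN3-AS1 are named for a sense neighbour, while TUNAR, LINC01828 and LINC02525 have none. The current RefSeq table counts TUNAR as protein coding, because a short reading frame in it encodes a micropeptide, and the other 6 as long noncoding RNA.

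Start regions are shown for the MYCNOS and HMGN3-AS1 pairs, to place each antisense start beside that of its sense gene, and for TUNAR and RFPL1S, which lie far apart in base composition. RefSeq start regions (GRCh38.p14, 250 bases before to 50 bases after a gene's start) were found for 4 of the 7 genes, TUNAR, RFPL1S, MYCNOS and HMGN3-AS1, and for MYCN and HMGN3. The capitals mark the 50 transcribed bases. MYCNOS is shown at the start nearer to that of MYCN (chr2:15941636-15941935, minus strand), MYCN at chr2:15940300-15940599 (plus strand), HMGN3-AS1 at chr6:79233424-79233723 (plus strand), HMGN3 at chr6:79234633-79234932 (minus strand), TUNAR at the first of its start regions (chr14:95876198-95876497, plus strand) and RFPL1S at chr22:29442080-29442379 (minus strand).
MYCNOS: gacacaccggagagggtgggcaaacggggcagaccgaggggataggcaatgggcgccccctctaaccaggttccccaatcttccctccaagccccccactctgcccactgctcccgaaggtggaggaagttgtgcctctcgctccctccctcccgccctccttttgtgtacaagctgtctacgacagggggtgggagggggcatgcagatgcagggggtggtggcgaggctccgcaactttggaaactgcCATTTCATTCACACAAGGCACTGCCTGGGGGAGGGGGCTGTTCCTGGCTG
MYCN: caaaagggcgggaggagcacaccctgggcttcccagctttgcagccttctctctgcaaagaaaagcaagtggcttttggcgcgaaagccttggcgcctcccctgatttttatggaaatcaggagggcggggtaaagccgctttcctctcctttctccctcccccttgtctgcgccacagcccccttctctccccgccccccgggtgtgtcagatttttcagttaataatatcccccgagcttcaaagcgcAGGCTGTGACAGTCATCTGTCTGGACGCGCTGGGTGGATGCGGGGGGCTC
HMGN3-AS1: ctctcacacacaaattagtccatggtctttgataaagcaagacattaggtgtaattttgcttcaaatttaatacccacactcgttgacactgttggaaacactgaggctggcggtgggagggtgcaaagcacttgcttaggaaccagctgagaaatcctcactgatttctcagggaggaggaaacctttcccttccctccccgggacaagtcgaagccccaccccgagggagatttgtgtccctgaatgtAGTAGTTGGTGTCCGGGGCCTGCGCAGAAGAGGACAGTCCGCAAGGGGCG
HMGN3: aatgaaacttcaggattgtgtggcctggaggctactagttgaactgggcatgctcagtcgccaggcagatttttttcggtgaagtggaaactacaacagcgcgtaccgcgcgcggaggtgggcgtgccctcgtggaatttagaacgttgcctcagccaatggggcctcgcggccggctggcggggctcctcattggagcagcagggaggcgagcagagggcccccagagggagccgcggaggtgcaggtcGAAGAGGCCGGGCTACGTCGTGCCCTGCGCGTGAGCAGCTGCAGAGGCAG
TUNAR: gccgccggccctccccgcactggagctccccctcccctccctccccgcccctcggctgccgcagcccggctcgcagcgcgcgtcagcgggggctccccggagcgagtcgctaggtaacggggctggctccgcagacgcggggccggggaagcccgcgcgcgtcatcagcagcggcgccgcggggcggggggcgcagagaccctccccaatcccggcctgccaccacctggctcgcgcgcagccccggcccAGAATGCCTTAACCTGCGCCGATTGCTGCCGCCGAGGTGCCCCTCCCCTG
RFPL1S: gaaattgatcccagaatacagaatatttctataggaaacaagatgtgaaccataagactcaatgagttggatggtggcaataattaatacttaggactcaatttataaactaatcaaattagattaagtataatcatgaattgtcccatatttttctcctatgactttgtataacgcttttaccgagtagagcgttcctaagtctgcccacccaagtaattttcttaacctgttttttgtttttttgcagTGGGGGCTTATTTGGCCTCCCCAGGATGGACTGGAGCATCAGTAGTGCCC

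MYCNOS starts 1135 bases downstream of the MYCN start on the opposite strand, and a second MYCNOS start lies at 1883 bases. The start of HMGN3-AS1 lies 1008 bases inside HMGN3. The TUNAR region shown is rich in G and C (78.3%) with 39 CpG dinucleotides, more G and C than in 95.5% of 35116 start regions. The RFPL1S region is at the other end, with 37.0% G and C and 3 CpG dinucleotides, and 6.5% of start regions hold less G and C. MYCNOS (63.3%) and HMGN3-AS1 (51.7%) lie between them, beside a median of 58.7%. The E-box CACGTG, a motif bound by MYC family proteins, was in 0 of the 8 start regions of these 6 genes, searched on both strands, and in 7.26% of all start regions. The E-box CATGTG was found once in the second MYCNOS start region and once in the second TUNAR start region, with matches in 11.1% of all. The motif TATAAA was found in RFPL1S only among the 6 genes, as 2 overlapping matches on opposite strands 147 and 149 bases before the start, and 11.5% of all start regions hold it. A match is a description of the sequence and not a binding site.

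The values are MAS5 signals, a summary of the brightness of a probe set on a linear scale with no unit, scaled so that each array has the same trimmed mean. The array medians were 98.8 in NGP, 89.9 in IMR-32 and 119 in the pool, and a signal below its array median is called dim here. A ratio is the log2 of one signal over another, and where a gene has several probe sets their median ratio was taken. The word overexpressed is used for genes in the top 7% by this ratio, a limit that lay at 1.84 in NGP (3.58-fold) and at 1.68 in IMR-32 (3.20-fold). The median ratio of all genes was -0.22 in NGP and -0.23 in IMR-32. Where several probe sets read a gene, their ratios scattered by an SD of 1.41 in NGP and 1.31 in IMR-32. The SD was 1.09 in NGP and 0.97 in IMR-32 once probe sets were dropped whose brighter signal was dim. This scatter is the only measure of error here, and it leaves out the spread between cultures. It is the disagreement between different probe sets of a gene, not the error of a single probe set between arrays. For genes with a single probe set it is therefore only a rough guide. As a check of the labels, 8 of 9 measured sympathoadrenal genes were overexpressed in NGP and 5 of 9 in IMR-32. TH, the rate-limiting enzyme of catecholamine synthesis, had 4379 in NGP, 103 in IMR-32 and 271 in the pool, so this defining gene was lower in IMR-32 than in the pool, short of the lower cut-off. GATA2 (-1.34) and DBH (-0.33) were also lower in IMR-32 than in the pool, neither past the cut-off. The 5 epithelial genes, led by keratins, were within the bottom 7% in both lines, with ratios from -8.70 to -6.42 in NGP and from -8.16 to -5.78 in IMR-32. COL1A2 among 5 mesenchymal genes was within the bottom 7% in both lines. Among 4 haematopoietic and 4 melanocytic genes, CD34 (2.62) and PMEL (2.30) were overexpressed in NGP and CD3E (-3.39) was within the bottom 7% in IMR-32. CD34 in NGP and CD3E in IMR-32 lose these calls when signals below the array median are raised to it (0.78 and -0.98).

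All 9 probe sets were dim in the pool, with signals from 2.25 to 100.5. In NGP 6 of the 9 were at or above the array median, and in IMR-32 7 were. By the ratio over the pool, 6 of the 7 genes were overexpressed in NGP and 7 of 7 in IMR-32, where 7% of all genes are overexpressed by construction. This count follows from how the genes were chosen. High ratios went with dim pool signals. Among 4564 probe sets with a pool signal up to that of LINC02525 (15.0), 36.2% passed the cut-off in NGP and 35.5% in IMR-32, while 6.55% in NGP and 6% in IMR-32 passed it and were also at or above the array median of the line. For this reason each ratio of the 7 genes is given again with every signal below its array median raised to that median, called the floored ratio (upper cut-offs 0.90 in NGP and 0.91 in IMR-32, lower cut-offs -1.35 and -1.39). For the flanking and listed genes named below it is given where it ends or starts a call over the pool. On that scale 4 of the 7 genes passed in NGP and 5 in IMR-32, and LINC02525, MYCNOS and TBX2-AS1 passed in both.

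**Figure D1:**
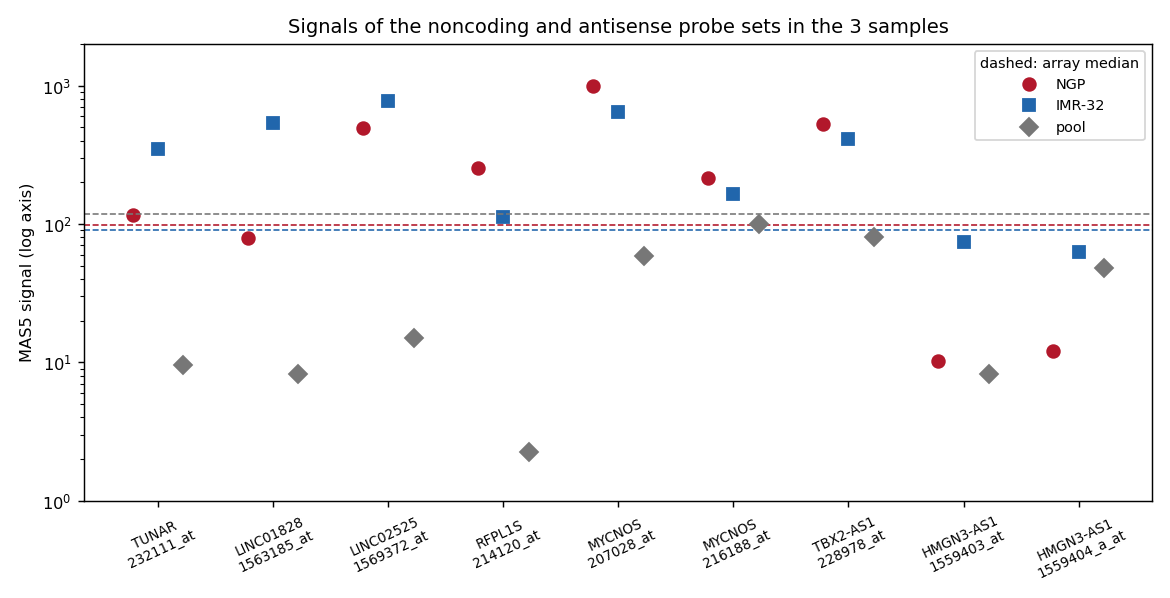
MAS5 signals (y-axis, log scale) of the 9 probe sets of the 7 genes (x-axis) in NGP (red circles), IMR-32 (blue squares) and the pool (grey diamonds), 1 array each, with the array medians as dashed lines of the same colours. All pool signals lie below the pool median of 119, and the NGP and IMR-32 signals of LINC02525, MYCNOS and TBX2-AS1 lie above their medians.

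LINC02525, also named lncNB1 and known as a transcript of neuroblastoma cells with amplified MYCN, was high in both lines. Its probe set (1569372_at, chromosome 6) had a signal of 495 in NGP, 776 in IMR-32 and 15.0 in the pool. Both lines were thus several times above their array medians and the pool was dim. The log2 ratio over the pool was 5.04 in NGP (33.0-fold) and 5.69 in IMR-32 (51.7-fold), rank 19 and rank 5 among all genes. The floored ratios were 2.06 in NGP and 2.70 in IMR-32. NGP over IMR-32 was -0.65, which is less than the scatter of probe sets that read one gene (SD 1.28 for NGP over IMR-32, or 0.86 without dim ones), so the lines cannot be put in order.

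TUNAR, which acts in pluripotency and neural differentiation of embryonic stem cells, was high in IMR-32 and near the array median in NGP. Its probe set (232111_at, chromosome 14) had a signal of 116 in NGP, 349.9 in IMR-32 and 9.63 in the pool. The log2 ratio was 3.59 in NGP (12.1-fold) and 5.18 in IMR-32 (36.3-fold), but the floored ratio in NGP was -0.03, which ends the call there, and that in IMR-32 was 1.55. NGP over IMR-32 was -1.59, beyond the SD of 0.86 and short of the lower cut-off of -1.84. TUNAR was past the lower cut-off with floored ratios (-1.59, cut-off -0.77), after adding 32 to each signal (-1.36, cut-off -1.06) and at the bottom 10% (cut-off -1.45).

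LINC01828, a noncoding gene on chromosome 2 between MEIS1 and ETAA1, was the gene of the set that differed most between the lines. Its probe set (1563185_at) had a signal of 79.3 in NGP, 534 in IMR-32 and 8.19 in the pool. Only the IMR-32 signal was above its array median. The log2 ratio was 3.28 in NGP (9.68-fold), with a floored ratio of -0.27, and 6.03 in IMR-32 (65.2-fold), with a floored ratio of 2.16. Among all genes the IMR-32 ratio ranked 2. NGP over IMR-32 was -2.75, within the bottom 7% of that comparison, and remained so on the floored scale (-2.43, cut-off -0.77).

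RFPL1S had the highest raw ratio of the set in NGP, over the dimmest pool signal, but not on the floored scale, where TBX2-AS1, LINC02525 and MYCNOS were higher. Its probe set (214120_at, chromosome 22) had a signal of 252 in NGP, 113 in IMR-32 and 2.25 in the pool, which is far below the pool median. The log2 ratio was 6.81 in NGP (112-fold), rank 2 among all genes, and 5.66 in IMR-32 (50.5-fold), rank 6. The floored ratio was 1.08 in NGP and -0.07 in IMR-32, so the call in IMR-32 is lost and both ratios are far smaller on that scale. NGP over IMR-32 was 1.15, more than the SD of 0.86 and less than that of 1.28 with dim probe sets. It was less than the upper cut-off of 1.95, though past that of the floored scale (0.76). A second probe set (214408_s_at) names both RFPL1S and the related RFPL3S and was left out of the gene value. It was dim in all 3 samples, with 87.4 in NGP, 83.5 in IMR-32 and 79.4 in the pool.

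MYCNOS, whose transcripts lie opposite MYCN and in human cells also encode the NCYM protein, was high in both lines by 1 probe set and less so by the other. The first (207028_at, chromosome 2) had a signal of 987 in NGP, 642 in IMR-32 and 59.1 in the pool, so that the log2 ratio was 4.06 for NGP and 3.44 for IMR-32. The second (216188_at) had 214 in NGP, 165 in IMR-32 and 100.5 in the pool, giving 1.09 for NGP and 0.71 for IMR-32. Both probe sets thus had the same order of the samples, with NGP highest and the pool lowest. As the median, the gene was at 2.58 in NGP (5.97-fold) and 2.08 in IMR-32 (4.22-fold), and its floored ratios were 1.95 and 1.45 in NGP and IMR-32. When the limit was taken over probe sets in place of genes, the IMR-32 ratio fell just short of it (2.08 against 2.09). NGP over IMR-32 was 0.62 and 0.38 by the 2 probe sets, within the SD of 0.86.

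TBX2-AS1, which lies beside TBX2, was above the array median in both lines. Its probe set (228978_at, chromosome 17) had a signal of 529.6 in NGP, 413 in IMR-32 and 81.1 in the pool. The log2 ratio was 2.71 in NGP (6.53-fold) and 2.35 in IMR-32 (5.09-fold), and on the floored scale it was 2.15 for NGP and 1.79 for IMR-32. NGP over IMR-32 was 0.36, within the SD of 0.86.

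HMGN3-AS1 was dim in every sample, so no level is read from it. One probe set (1559403_at, chromosome 6) had 10.3 in NGP, 74.2 in IMR-32 and 8.21 in the pool, and the other (1559404_a_at) had 12.0 in NGP, 62.3 in IMR-32 and 48.2 in the pool. IMR-32 was the highest sample by both, while the order of NGP and the pool differed. The gene ratio was -0.84 in NGP and 1.77 in IMR-32, close above the cut-off of 1.68. Its probe sets disagreed, at 0.33 and -2.01 in NGP and at 3.18 and 0.37 in IMR-32. The NGP over IMR-32 ratio was -2.61, within the bottom 7%, but both signals are dim, and the floored value is of the other sign (0.14, which is the ratio of the array medians).

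**Figure D2:**
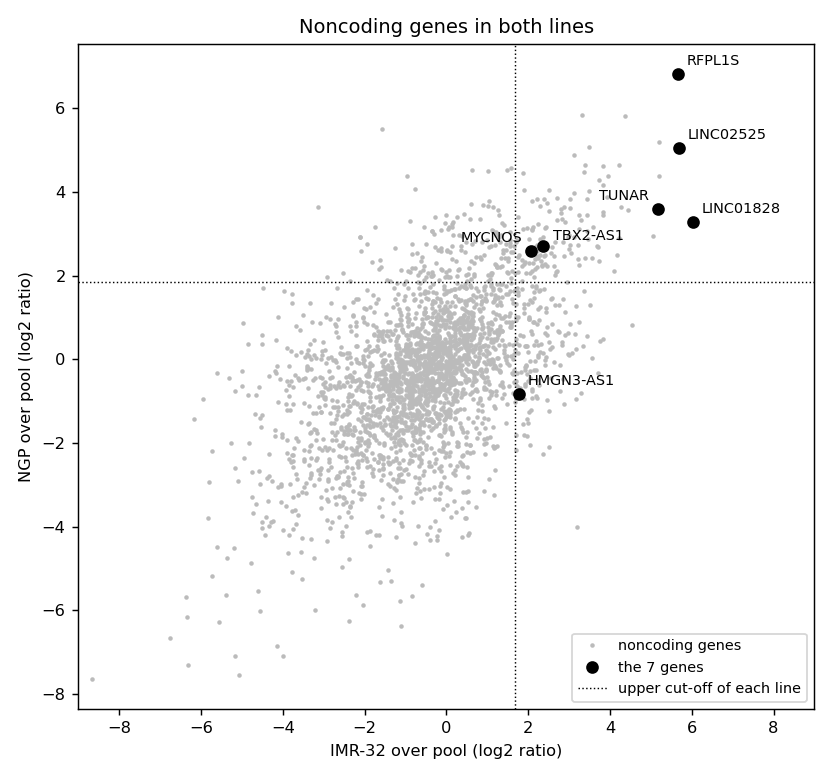
Log2 ratio over the pool in IMR-32 (x-axis) and NGP (y-axis) for all 2667 genes that RefSeq counts as noncoding RNA (grey points) and for the 7 genes (black, labelled), with the upper cut-offs of 1.68 and 1.84 as dotted lines. RFPL1S, LINC02525, LINC01828 and TUNAR lie at the upper right edge of the noncoding genes, MYCNOS and TBX2-AS1 nearer to the cut-offs, and HMGN3-AS1 below the NGP cut-off.

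The direct comparison of the lines was not named in the choice of the genes, but it rests on 2 of the same 3 arrays. It is not independent of that choice, since a gene chosen for a high signal in a single line tends to differ between the lines. For NGP over IMR-32, 2 of the 7 genes, LINC01828 and HMGN3-AS1, were within the bottom 7% and 0 were within the top 7%, and each end holds 7% of all genes. The count is a description only, and HMGN3-AS1 is dim in every sample, with a floored value of 0.14. Of the 9 probe sets, 5 were lower in NGP than in IMR-32. The set did not move one way, with a median of -0.65 beside 0.02 over all genes. RFPL1S, MYCNOS and TBX2-AS1 were higher in NGP by 1.15, 0.50 and 0.36, and TUNAR, LINC01828, LINC02525 and HMGN3-AS1 were lower, beside an SD of 0.86 to 1.28.

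The sense neighbours did not enter the choice of the genes. By the gene ratio 0 of the 4 were overexpressed in NGP and 2 of 4, MYCN and TBX2, in IMR-32. MYCN encodes a transcription factor of the MYC family whose gene is amplified in many aggressive neuroblastomas and, as the paper reports, in both lines. Its 3 probe sets at or above the median of every array (209756_s_at, 209757_s_at and 211377_x_at) lay at 4.52, 2.44 and 4.40 in NGP and at 3.62, 1.91 and 2.59 in IMR-32. The brightest had a signal of 46144 in NGP, 31846 in IMR-32 and 8493 in the pool. The other 7 MYCN probe sets were dim in IMR-32 and, but for 1, in NGP. Among these 7, 234298_at was just above the array median in the pool (121) and went the other way, at -4.20 in NGP and -4.60 in IMR-32. With the 7 included the gene ratio was 1.63 in NGP and 1.89 in IMR-32, and without dim probe sets it was 4.40 in NGP. The floored MYCN ratio was -0.27 in NGP and -0.41 in IMR-32, which ends the call of the gene value in IMR-32. By these 3 probe sets NGP was above IMR-32 by 0.54 to 1.81, beside 0.38 and 0.62 for the MYCNOS probe sets. By these probe sets MYCNOS and MYCN were both higher than the pool in both lines. They lie on opposite strands, and whether each probe set reads only its own strand was not tested.

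TBX2, a T-box transcription factor of the adrenergic neuroblastoma cell state, had lower signals in NGP than in IMR-32. For TBX2-AS1 the lines cannot be put in order, since NGP over IMR-32 was 0.36, within the SD of 0.86. The 3 bright TBX2 probe sets had 566, 972 and 1219 in NGP, 1349, 2304 and 2928 in IMR-32, and 227, 119.8 and 335 in the pool. Each put NGP below IMR-32 by nearly the same amount, with NGP over IMR-32 at -1.25, -1.25 and -1.26. The gene value of -1.25 was short of the lower cut-off of -1.84. It was beyond the SD of 0.86 without dim probe sets and just within that of 1.28 with them. The TBX2 value passed the lower cut-off with floored ratios (-0.77) and after adding 32 (-1.21, cut-off -1.06). The fourth (221977_at) was dim in every sample. Over the pool TBX2 was at 1.59 in NGP and 2.85 in IMR-32. Its floored ratios were the same and passed the cut-offs of that scale in both lines. Without dim probe sets TBX2 was at 1.86 in NGP and 3.13 in IMR-32. By the gene values, dim probe set included, TBX2-AS1 exceeded TBX2 by 1.12 in NGP. It was lower than TBX2 by 0.50 in IMR-32 (difference -0.50), and for NGP over IMR-32 the pair differed by 1.61.

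RFPL1, a gene of the RING finger family of ret finger protein-like genes, was dim in every sample, with 6.68 in NGP, 5.07 in IMR-32 and 9.87 in the pool. Its ratios to the pool, -0.56 for NGP and -0.96 for IMR-32, are therefore not read as levels. The floored ratios were -0.27 in NGP and -0.41 in IMR-32, which are those of the array medians, beside 1.08 and -0.07 for RFPL1S. HMGN3, a nucleosome-binding protein that opens chromatin, was bright in every sample, with 12625 in NGP, 16619 in IMR-32 and 10498 in the pool. Its ratios were 0.27 in NGP and 0.66 in IMR-32, neither past a cut-off.

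**Figure D3:**
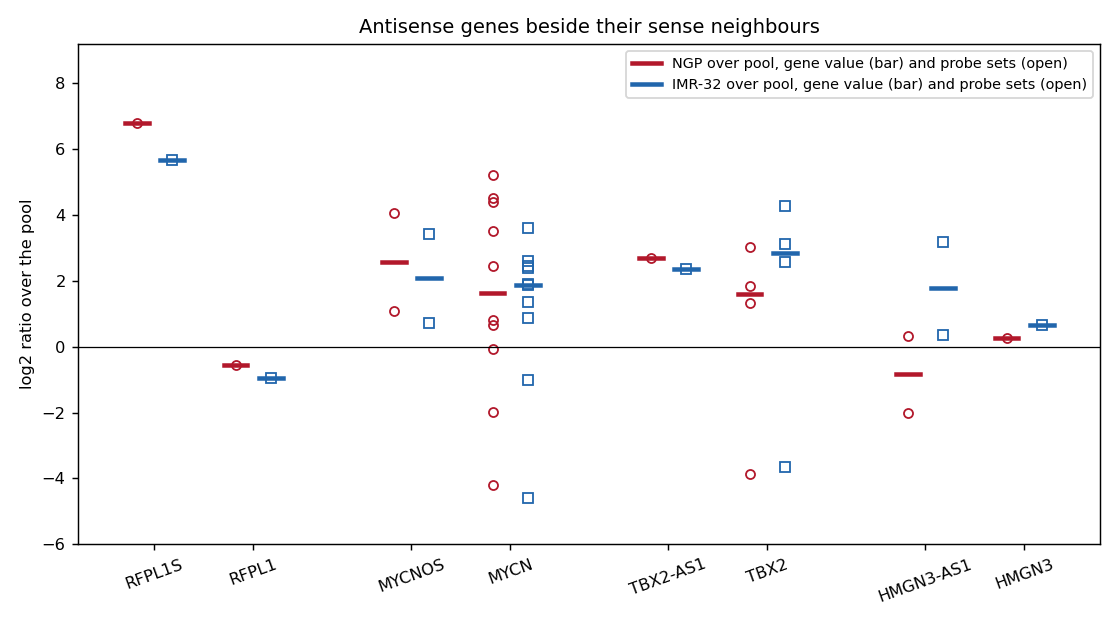
Log2 ratio over the pool (y-axis) of the 4 antisense genes and their sense neighbours (x-axis) in NGP (red) and IMR-32 (blue), with a bar for the gene value and open symbols for single probe sets. RFPL1S lies above 5 over a pool signal of 2.25, RFPL1 lies below 0, the MYCN probe sets spread from -4.20 to 5.23 in NGP, and the TBX2 bar is higher in IMR-32 (2.85) than in NGP (1.59).

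Across the whole array, antisense and sense genes were only loosely alike. For 720 pairs of an antisense gene, found by its symbol, and its measured sense gene, the ratios over the pool had the same sign in 57.2% of pairs in NGP and in 55.6% in IMR-32. Across pairs, which share arrays and are not replicates, Pearson's r was 0.21 in NGP and 0.15 in IMR-32. It was 0.36 over the 305 pairs in NGP, and 0.31 over the 289 pairs in IMR-32, whose antisense gene was at or above the array median in the line or the pool. Of 62 overexpressed antisense genes in NGP, 11 had an overexpressed sense gene, and of 59 in IMR-32, 6 did. By this symbol rule 788 antisense genes were measured, of which 9.01% were overexpressed in NGP and 8.88% in IMR-32. The 5 pairs with the highest antisense ratio in each line were taken among those whose antisense gene was at or above the array median in that line or the pool, and dimmer antisense genes with ratios as high, such as POT1-AS1 (4.38 in NGP and 5.21 in IMR-32), were left out. They included the pairs of 2 regulators of the sympathetic lineage. HAND2-AS1 was at 3.88 in NGP and 3.93 in IMR-32 beside HAND2 at 2.66 and 2.5, and GATA3-AS1 at 3.84 in NGP and 2.22 in IMR-32 beside GATA3 at 1.88 and 1.63. GATA3 in IMR-32 was just short of the cut-off of 1.68. In others the sense gene did not pass the cut-off. CCNT2-AS1 was at 4.65 in NGP and 4.22 in IMR-32 beside CCNT2 at 0.63 and 1.25. It was dim in IMR-32 and in the pool, so it was among the pairs taken in NGP only. ITGB8-AS1 (4.44) and DDX59-AS1 (4.38) in NGP and ALG14-AS1 (3.72), MUC12-AS1 (3.00) and NCAM1-AS2 (2.52) in IMR-32 stood beside sense genes below the upper cut-offs, with MUC12 itself at -2.77 in IMR-32, while SOCS2-AS1 (3.03) and SOCS2 (2.03) were both overexpressed in IMR-32.

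The protein-coding neighbours of the 7 genes were taken as the 3 nearest measured genes on each side, 42 genes in all, sense neighbours included. In NGP 8 of them were overexpressed (19%) and in IMR-32 13 (31.0%), against 7% of all genes. The median ratio over the 42 genes was 0.13 in NGP and 0.38 in IMR-32, so most neighbours did not share the high ratios. LINC02525 lies between the neuronal beta-tubulin genes TUBB2A and TUBB2B. TUBB2B had 18083 in NGP, 11968 in IMR-32 and 1009 in the pool, that is, 4.16 for NGP and 3.57 for IMR-32. TUBB2A was at 1.63 in NGP and 1.59 in IMR-32, below both cut-offs. Its floored ratios are the same and pass the cut-offs of that scale (0.90 and 0.91). Beyond them, PSMG4 was at -1.53 in NGP and -0.39 in IMR-32.

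Beside TUNAR, C14orf132 was overexpressed in both lines (2.23 in NGP and 2.79 in IMR-32). Farther on, the bradykinin receptor genes BDKRB2 (-4.91 in NGP and -4.32 in IMR-32) and BDKRB1 (-2.89 in NGP and -1.08 in IMR-32) were lower than in the pool. The floored ratio of BDKRB1 in NGP, -0.46, ends its call, and that of BDKRB2 (-1.78 in NGP and -1.91 in IMR-32) does not. Beside RFPL1S, NEFH, which encodes the heavy neurofilament subunit of neurons, was at 3.98 in NGP and 2.08 in IMR-32. Beside TBX2-AS1, PPM1D, a phosphatase that limits p53 signalling, was at 2.16 in NGP and 2.52 in IMR-32. Beside HMGN3-AS1, SH3BGRL2 was at 2.70 in NGP and 2.94 in IMR-32, but its 2 probe sets disagreed (1.09 and 4.30 in NGP, 1.29 and 4.58 in IMR-32). On the floored scale it was at 0.41 in NGP and 0.44 in IMR-32, which ends both calls. IRAK1BP1 passed the cut-off in IMR-32 alone, with 1.60 in NGP and 3.79 in IMR-32. On the floored scale it passed in NGP as well (1.04, cut-off 0.90).

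**Figure D4:**
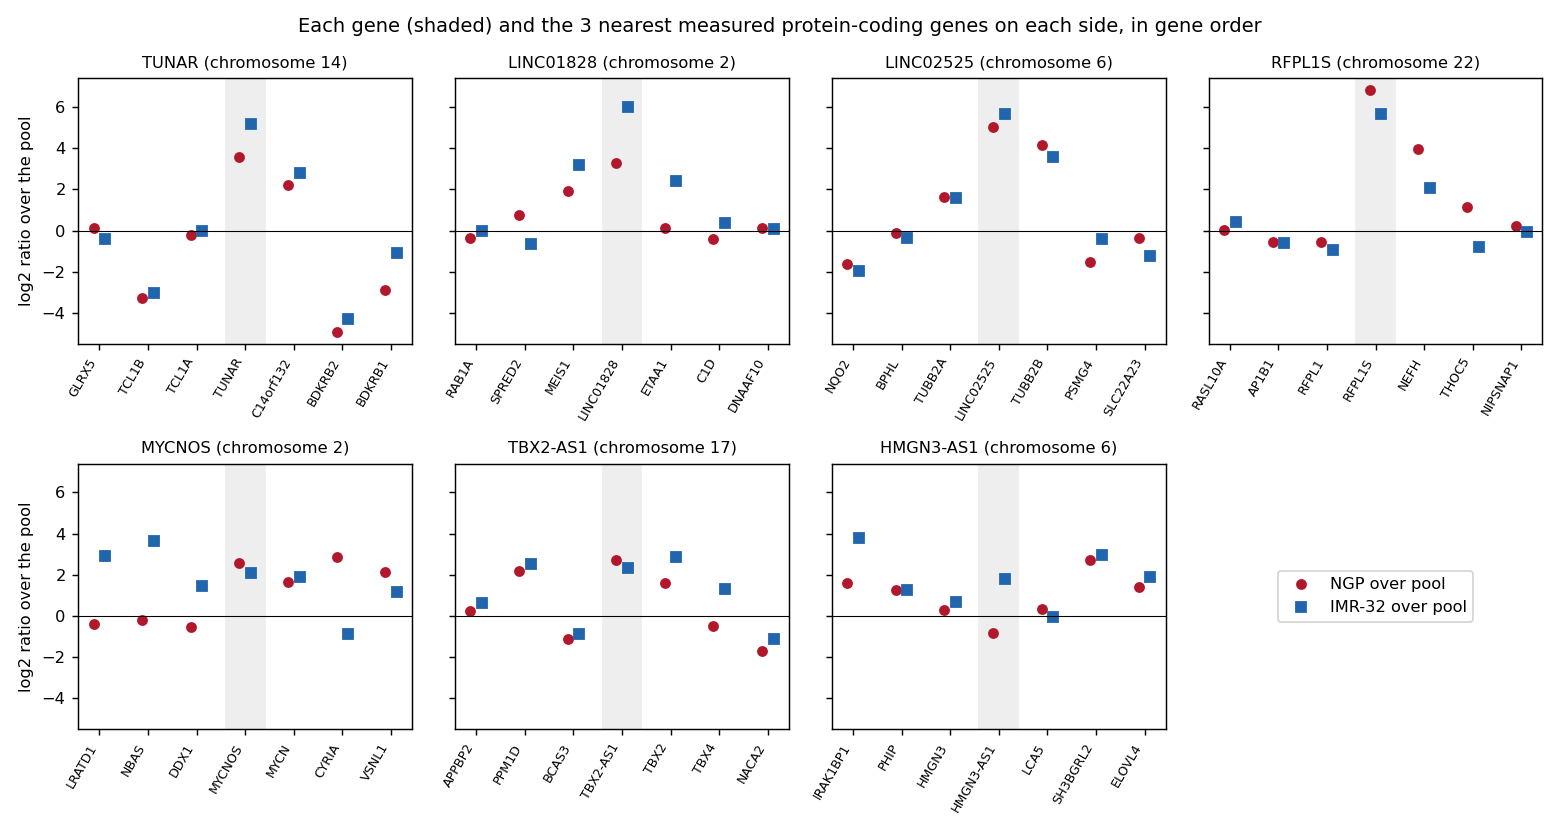
Log2 ratio over the pool (y-axis) in NGP (red circles) and IMR-32 (blue squares) of each of the 7 genes (shaded) and of the 3 nearest measured protein-coding genes on each side, in gene order (x-axis). TUBB2B, NEFH and C14orf132 are high beside LINC02525, RFPL1S and TUNAR, and LRATD1 and NBAS on one side of MYCNOS pass the cut-off in IMR-32 only, with CYRIA on the other side past it in NGP only.

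On chromosome 2, the genes MEIS1 and ETAA1 beside LINC01828 were, like it, lower in NGP than in IMR-32. LINC01828 lies between MEIS1, a homeobox gene, and ETAA1, a gene of the replication stress response. The paper reports an amplified region with MEIS1 in IMR-32, and its part in these values was not tested. MEIS1 was at 1.92 in NGP and 3.17 in IMR-32, and ETAA1 at 0.13 in NGP and 2.41 in IMR-32, so NGP over IMR-32 was -1.26 and -2.27, beside -2.75 for LINC01828. Of the next genes outward, SPRED2 went the other way for NGP over IMR-32 (1.63), and C1D was at -0.78, within the SD of 0.86. The other noncoding genes measured between MEIS1 and ETAA1, looked up after the values of LINC01828 were seen, were LINC01798 and LINC01799. One LINC01798 probe set (233249_at) had 8.68 in NGP, 22128 in IMR-32 and 1549 in the pool, with NGP over IMR-32 at -11.32. The other (233172_at) had 24.3 in NGP, 206 in IMR-32 and 35.3 in the pool, at -3.09. LINC01799 had 46.3 in NGP, 197 in IMR-32 and 6.01 in the pool, at -2.09. In all of them IMR-32 was the highest sample and NGP was dim, and the pool was dim for all but 233249_at.

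Around MYCNOS the lines differed on each side. The paper reports amplification of MYCN in both lines, over regions of differing extent, and its part in these ratios was not tested. LRATD1, NBAS and DDX1 were at -0.41, -0.18 and -0.55 in NGP and at 2.91, 3.66 and 1.44 in IMR-32. The DDX1 ratio in IMR-32 is below the cut-off but passes on the floored scale, where it is the same (1.44). CYRIA, on the other side, was at 2.87 in NGP and -0.86 in IMR-32, and VSNL1, a neuronal calcium sensor, at 2.15 in NGP and 1.14 in IMR-32. The noncoding gene MYCNUT, which lies between DDX1 and MYCN and was also looked up because of its place, was dim in every sample, with 65.9 in NGP, 14.4 in IMR-32 and 119 in the pool. The pool signal is just under its array median.

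Noncoding genes as a class passed the upper cut-offs somewhat more often than the 7% of all genes. Of 2667 measured genes that RefSeq types as noncoding, 10.8% were overexpressed in NGP and 10.2% in IMR-32, and 6.90% and 9.19% were underexpressed in NGP and IMR-32. For NGP over IMR-32 13.3% were within the top 7% and 10.3% within the bottom 7%. Their median ratio was -0.27 in NGP and -0.44 in IMR-32. Noncoding genes were dim more often than others, since 35.2% of them kept a probe set for NGP over the pool once dim ones were dropped, against 71.9% of all genes. Without dim probe sets the overexpressed share was 10.7% in NGP and 9.70% in IMR-32. The underexpressed share was then 6.6% in NGP and 9.81% in IMR-32, so in IMR-32 both ends held about the same share. 

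Of 33 noncoding genes listed for neuroblastoma, 24 were measured, and 4 were overexpressed in each line. HAND2-AS1, GATA3-AS1 and MIAT were overexpressed in both, though for GATA3-AS1 in IMR-32 the floored ratio of 0.64 ends the call. HAND2-AS1, transcribed divergently from HAND2, had the highest ratio of the list in both lines, and its 2 probe sets lay close together, from 3.80 to 3.95 in NGP and from 3.76 to 4.10 in IMR-32. MIAT was at 2.47 in NGP and 2.21 in IMR-32. DLX6-AS1 passed in NGP alone (2.21, against 1.30 in IMR-32) and LINC00839 in IMR-32 alone (-0.25 in NGP and 2.18 in IMR-32), where its floored ratio of 0.84 ends the call. HOTAIR, a noncoding gene of the HOXC cluster, was within the bottom 7% in both lines, with 1.27 in NGP, 10.8 in IMR-32 and 173 in the pool. On the floored scale HOTAIR was at -0.81 in NGP and -0.94 in IMR-32, which ends both calls. NBAT1 and CASC15, neighbouring noncoding genes at a neuroblastoma risk locus, were at 1.73 and 1.31 in NGP and at 0.91 and 0.85 in IMR-32, below the cut-offs. The list's median was 0.24 in both lines.

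Of 21 noncoding genes listed for neural tissue, 14 were measured under the listed name and 4 were overexpressed in each line, DLX6-AS1 and MIAT being on both lists. The listed TUNA is another name of TUNAR, was not matched, and is left out of the counts of this list and of the 3 lists together. LINC00632, the host transcript of the circular RNA CDR1-AS, had 533 in NGP, 197 in IMR-32 and 9.54 in the pool, that is, 5.80 for NGP and 4.36 for IMR-32. Its floored ratios were 2.16 in NGP and 0.72 in IMR-32, which ends the call in IMR-32. MIR124-2HG, a host gene of the neuronal microRNA miR-124, was at 0.81 in NGP and 4.53 in IMR-32. Its 3 probe sets disagreed, spanning -1.26 to 2.88 in NGP and -1.72 to 5.35 in IMR-32, and its floored ratio in IMR-32 was 0.21, which ends the call. For NGP over IMR-32, 5 of the 14 were within the top 7%, SOX2-OT (4.71), SOX1-OT (2.83), LINC01551 (2.5), MIR9-1HG (2.08) and PWRN1 (1.99). Of these, SOX2-OT, SOX1-OT and PWRN1 were dim in every sample, and LINC01551 fell to 0.21 on the floored scale (upper cut-off 0.76). For NGP over the pool, the floored ratio ends the call of SOX2-OT (2.76, floored -0.27). It starts a call for MIR9-1HG (1.38, floored 0.92). The list's median was 1.5 in NGP and -0.43 in IMR-32, and floored medians were -0.23 and -0.41.

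Of 20 snoRNA host and widely expressed noncoding genes, 10 were measured alone by a probe set, and they lay near the pool. FTX was overexpressed in NGP (1.98, against 0.27 in IMR-32) and 0 were in IMR-32. Their medians were 0.25 in NGP and 0.26 in IMR-32. MALAT1, an abundant nuclear RNA, was at -0.13 in NGP and -0.53 in IMR-32, and NORAD at 0.06 in NGP and 0.49 in IMR-32. Over the 3 lists together, 7 of 41 measured genes were overexpressed in each line (17.1%), against 7% of all genes. Past either cut-off were 10 in each line, and with floored signals 9 in NGP and 3 in IMR-32. The IMR-32 count thus depends on how low signals are handled.

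**Figure D5:**
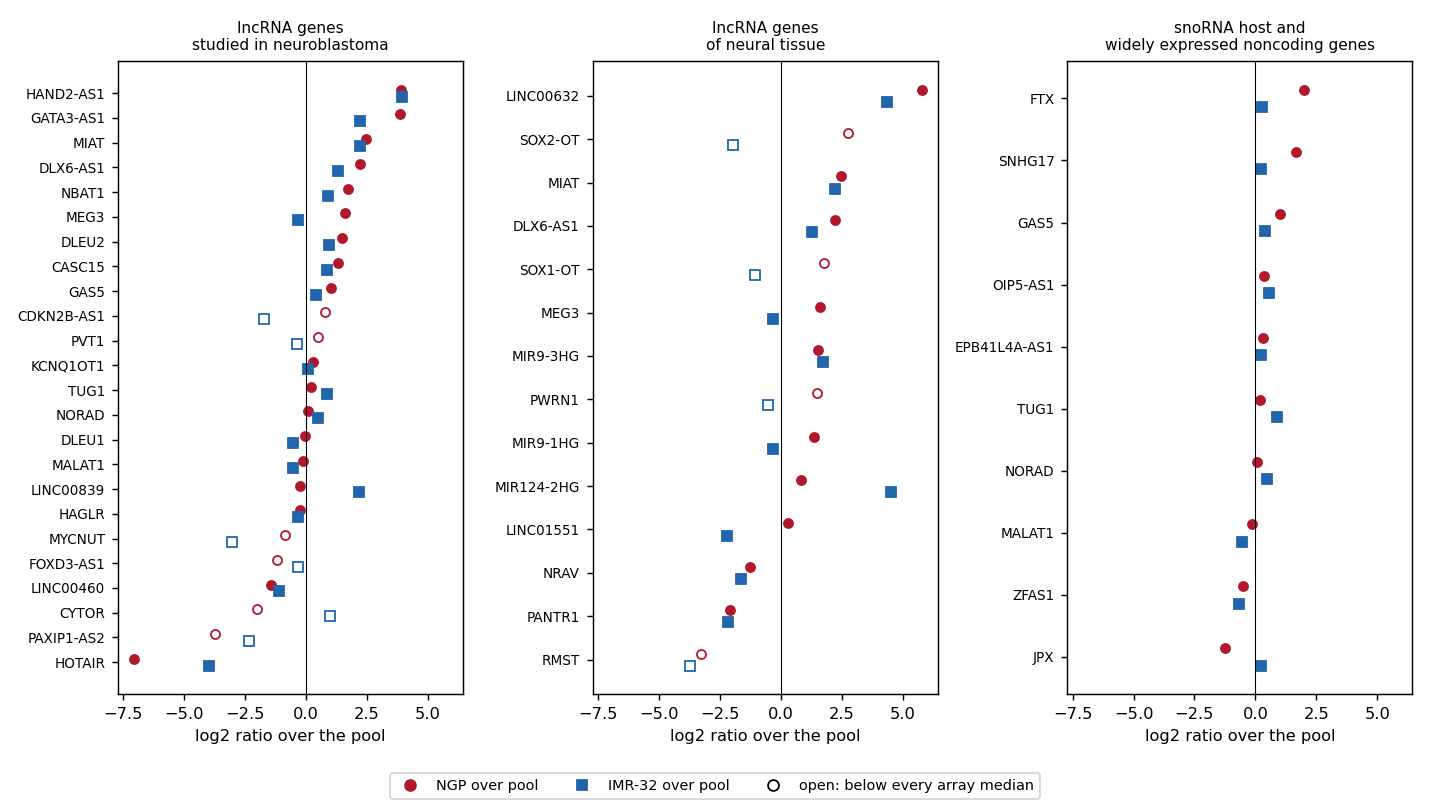
Log2 ratio over the pool (x-axis) in NGP (red circles) and IMR-32 (blue squares) of the measured genes of the 3 lists of noncoding genes (y-axis, ordered by the NGP ratio). Open symbols are genes whose signals are below the median of every array. HAND2-AS1 and LINC00632 head their lists in NGP at 3.88 and 5.80, and the widely expressed genes lie between -1.23 and 1.98.

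The genes with the most similar pair of ratios, by the distance between points with the NGP and IMR-32 ratios as axes, were taken among genes with a signal at or above an array median, so over 2 ratios from 3 samples. Nearest to LINC02525 were SIAH3 (distance 0.102), CHRNB4, a nicotinic receptor subunit gene (0.507), and PCDH8, a protocadherin gene (0.761). CHRNB4 was also nearest to RFPL1S, at 1.308. TUNAR had TMEM169 (0.457) and B3GALT2 (0.459) nearest, and LINC01828 had B3GALT2 (0.695) and TUNAR itself (0.903), with LINC01799 the third for both (0.663 for TUNAR and 1.043 for LINC01828). MYCNOS lay near many genes, the closest being the synaptic gene CPLX1 (0.025), the netrin receptor gene UNC5B (0.043) and the calcium channel subunit gene CACNA2D1 (0.078). NREP (0.051), PDE2A (0.060) and ST8SIA3 (0.061) were nearest to TBX2-AS1, and KCNJ4 (0.076) was nearest to HMGN3-AS1.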

How the data were processed

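RNA of 3 samples, NGP, IMR-32 and the reference pool, was measured on 1 array each. The authors deposited one intensity per probe set, computed by MAS5 in affy from Bioconductor (version not given in the sources used here). These are linear and were scaled to a mean of 500.0 per array, leaving out the highest and lowest 2%. Of 54675 probe sets, 62 controls were left out, 41091 name 1 gene symbol in the platform annotation, 1801 several and 11721 none. Those matched by gene ID to RefSeq (GRCh38.p14) were used, 41037 probe sets of 19735 genes. Log2 ratios without a pseudocount and the 7% rule follow the study's methods, and the median per gene was added here. With 1 array per sample no test across samples was possible, and the number of arrays limits the precision. The named genes are the 7 genes, their sense neighbours, 3 protein-coding genes on each side, 3 gene lists, the 5 antisense pairs highest in each line among those with the higher antisense signal at or above its array median, and the 3 genes of most similar ratios. These genes and lists were chosen with earlier results of these data known. The 11 alternatives are described in the closing section. Python 3.11.15, numpy 2.4.6, pandas 2.3.3 and matplotlib 3.10.9 were used.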

Additional observations from a re-analysis of the deposited data

Results flagged for a closer look

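HMGN3-AS1 lay on opposite sides of the pool in the lines, with -0.84 in NGP against 1.77 for IMR-32, although its probe sets are dim in all 3 samples. SOX2-OT was at 2.76 in NGP and -1.95 in IMR-32, and SOX1-OT at 1.79 in NGP and -1.04 in IMR-32, each from 1 probe set that is dim in every sample. With 1 array per line these differences were not tested.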

How the results depend on the processing

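Scaling was changed by centring ratios on their median or by quantile normalization. Low signals were handled by log2(signal + 32), by floored signals or by dropping dim probe sets. Genes were also summarised by the brightest probe set, by the mean or without _s_at and _x_at types, and the limits were taken over all probe sets or at 5% or 10%. The number of the 7 genes overexpressed was 4 to 6 in NGP and 5 to 7 in IMR-32 over them, and the lowest NGP count came from floored signals. Leaving out dim probe sets left 5 of the genes measured in NGP and 6 in IMR-32, all of them overexpressed. For NGP over IMR-32 the count past a cut-off (2) became 1 without dim probe sets, since HMGN3-AS1 was then not measured, and 3 with log2(signal + 32), floored signals or 10%. TUNAR was added in these, and with floored signals RFPL1S was also added and HMGN3-AS1 lost. The sense neighbours overexpressed in NGP (0) became 1 with log2(signal + 32), floored signals, without dim probe sets or with the brightest probe set, and 2 with the top 10%. In IMR-32 (2) they became 1 with log2(signal + 32), floored signals, without _s_at and _x_at probe sets, cut-offs over all probe sets or the top 5%, and 0 with the mean. The listed noncoding genes past either cut-off, 10 in each comparison, became 16 with the brightest probe set and 17 with the top and bottom 10% for NGP over the pool, 3 with floored signals for IMR-32 over the pool, and 4 without dim probe sets for NGP over IMR-32.

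In NGP over the pool, floored signals turned the sign of TUNAR (-0.03), LINC01828 (-0.27) and MYCN (-0.27, from 1.63, which was not past a cut-off). They also turned that of RFPL1S (-0.07), HMGN3-AS1 (-0.41) and MYCN (-0.41) in IMR-32 over the pool, and of HMGN3-AS1 for NGP over IMR-32 (0.14). This follows from the construction. For TUNAR in NGP and RFPL1S in IMR-32 only the pool signal was raised, to its median, and for the others most or all signals were raised in both samples, which leaves the ratio of the medians. The cause of the other changes was not tested. No replicate could be left out and no paired analysis was possible because each sample has 1 array. Signal over background limits the dim genes, above all HMGN3-AS1.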
